A study of Mus musculus with 17 samples.

Results

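The genes described here are 33 germline and meiosis genes, a named list covering germ cell RNA regulators, the piRNA pathway, the synaptonemal complex, meiotic cohesin, recombination and other germ cell proteins. All 33 were found by symbol in the table of 20621 genes, and 32 were among the 15365 genes that passed the filter on low counts; Asz1 did not pass. Gene counts came from RNA-seq of E14 mouse embryonic stem cells in 17 libraries. WT cells and RNAPII-mut cells, which per the series title carry a slow-elongating RNA polymerase II and are called the mutant here, were each sampled at 0, 1, 2 and 7 days of 2i. All groups grew without feeders on gelatine in 10% serum and 1000 U per mL LIF, and 2i added 1 uM PD0325901, a MEK inhibitor, and 3 uM CHIR99021, a GSK3 inhibitor, which together hold the cells in the naive pluripotent state. The 8 groups, WT at 0, 1, 2 and 7 days and the mutant at 0, 1, 2 and 7 days, had 2 libraries each except the mutant at day 1, which had 3. The labels give no allele or clone for the mutant and do not say that replicates were separate cultures, so p-values measure only the spread between these libraries, and an effect of the mutation cannot be told apart from other differences between the lines.

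Germline genes serve the making of eggs and sperm. The piRNA pathway loads small RNAs onto PIWI proteins to silence transposons, and in meiosis a cohesin-based axis and the synaptonemal complex hold homologous chromosomes together while breaks are made and repaired by recombination. In pluripotent and somatic cells many of these genes have CpG-rich promoters that are kept silent by DNA methylation, and by a variant Polycomb complex with MGA, MAX and E2F6 that recognises E-box and E2F-type motifs. Growth in 2i is known to lower the de novo DNA methyltransferases and the methylation of the genome.

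Promoter sequences are shown first because many genes on the list share a feature there. RefSeq windows (GRCm38.p6, 250 bases before to 50 after a start, the first listed for each gene) matched 29 of the 33, all but Spo11, Piwil2, Tdrd6 and Tex11. Some are not at the outermost start: those of Piwil1, Mei1, Tex101, Msh4, Tdrd5 and Stag3 lie wholly inside the gene. The windows of Stk31 and Zcwpw1 end before the annotated start of the gene. The window of Piwil1, which holds CACGTG, begins at chr5:128735996 and the gene at 128702524. The E-box CACGTG, which reads the same on both strands, was in 15 of these 29 windows (51.7%) and in 7.24% of the windows of all 27025 genes. The E2F-type motif GCGGGA, searched on both strands, was in 11 of 29 (37.9%) against 20.0% of all genes, and 7 windows held both motifs. The median window held 20 CpGs on the list and 7 among all genes. The 6 stretches below are the 120 bases before the start of genes on which the results turn, chosen after their values were seen: Dazl and Fkbp6 rose by day 7, Ddx4, Tdrd1 and Taf7l fell, and Hormad1 did not pass the test. CACGTG and GCGGGA are in capitals.
Dazl (chr17:50293621-50293740, minus strand): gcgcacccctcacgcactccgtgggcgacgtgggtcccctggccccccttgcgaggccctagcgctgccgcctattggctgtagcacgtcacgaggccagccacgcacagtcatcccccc
Fkbp6 (chr5:135350045-135350164, minus strand): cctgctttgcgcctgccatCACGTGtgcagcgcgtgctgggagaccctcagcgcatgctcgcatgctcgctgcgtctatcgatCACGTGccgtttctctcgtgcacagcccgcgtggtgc
Ddx4 (chr13:112652311-112652430, minus strand): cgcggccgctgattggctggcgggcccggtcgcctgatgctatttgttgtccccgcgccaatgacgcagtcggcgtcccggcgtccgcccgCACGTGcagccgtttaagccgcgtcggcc
Tdrd1 (chr19:56826089-56826208, plus strand): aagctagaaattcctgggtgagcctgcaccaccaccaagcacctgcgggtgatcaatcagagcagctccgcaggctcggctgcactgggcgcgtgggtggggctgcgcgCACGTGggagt
Taf7l (chrX:134476491-134476610, minus strand): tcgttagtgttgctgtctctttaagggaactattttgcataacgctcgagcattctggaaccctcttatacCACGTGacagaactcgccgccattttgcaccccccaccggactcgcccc
Hormad1 (chr3:95559557-95559676, plus strand): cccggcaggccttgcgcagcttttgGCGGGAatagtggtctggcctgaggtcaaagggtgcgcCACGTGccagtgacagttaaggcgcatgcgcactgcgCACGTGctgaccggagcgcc
Fkbp6 and Hormad1 each hold 2 CACGTG, Ddx4, Tdrd1 and Taf7l 1 each, and Dazl none. By response to 2i, CACGTG was in 8 of the 14 matched genes that fell by day 7 (57.1%), 1 of the 3 that rose, and 6 of the 11 that did not pass the test (54.5%). GCGGGA was in 7 of the 14 that fell (50%), 1 of the 3 that rose, and 3 of the 11 that did not pass (27.3%). These shares rest on few genes and were not tested against each other. In a separate list of 41 other meiosis genes, 3 of 28 windows held CACGTG (10.7%) and 18 held GCGGGA (64.3%). A match describes letters in a window and is not a site or a cause.

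The libraries held from 47350441 to 56138844 counts. The list's genes summed to 153 to 366 CPM, the counts scaled to a common library size with edgeR's TMM factors. Low counts were mostly even: 89.8 to 93.3% of the values from 1 to 10 were even in a library, so that 2 counts may stand for 1 fragment, and the cause was not tested. Pou5f1, the pluripotency factor Oct4, was at 949 to 2430.2 CPM in all libraries. Polr2a, which encodes the largest subunit of RNA polymerase II, was at 456 to 885 CPM, a level that does not check the genotype. WT day 0 and WT day 1 replicate 1 stood apart in mesoderm and stroma genes, which summed to 1164 and 1495 CPM there and 183 to 413 elsewhere. The highest of the rest, WT day 2 replicate 1, also had Acta2 at 41.5 and Col1a1 at 44.5 CPM. Outside WT replicate 1 of days 0 to 2 these genes reached at most 1.95 and 3.96 CPM. WT day 2 replicate 1 was kept in the fits without WT replicate 1 of days 0 and 1. In WT replicate 2 primitive endoderm genes summed to 1320.1 to 1526 CPM over the 4 days, beside 631 to 955 in WT replicate 1 and 364 to 737 in the mutant. Their part in the results below was not tested. In bulk RNA, fewer cells expressing a gene and less RNA per cell cannot be told apart.

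Levels between genes are compared as CPM per kb of merged exons, averaged over the means of the 8 groups. Sycp3 led at 16.6 CPM per kb, followed by Rec8 at 13.2, Syce1 at 8.26 and Stag3 at 6.80, all structural parts of meiotic chromosomes. Mael, Zcwpw1, Dmc1 and Ddx4 lay between 4.62 and 3.22 CPM per kb. The lowest were Spo11 at 0.0161, Tdrd6 at 0.0170 and Asz1 at 0.0197 CPM per kb. Spo11, the enzyme that makes meiotic breaks, had a count in 9 of 17 libraries, and Asz1, a scaffold of piRNA factors at mitochondria, in 14. Of the exon bases of Sycp3, 52.2% overlap Chpt1 on the other strand, 36.7% of those of Tdrkh overlap Oaz3, and 8.21% of those of Zcwpw1 overlap Pilra. Because the strand setting of the counting is not given in the sources used here, reads in those bases cannot be assigned with certainty. Oaz3 and Pilra were at 0 to 0.101 and 0 to 0.0373 CPM, and Chpt1 at 6.61 to 19.5 CPM.

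**Figure D1:**
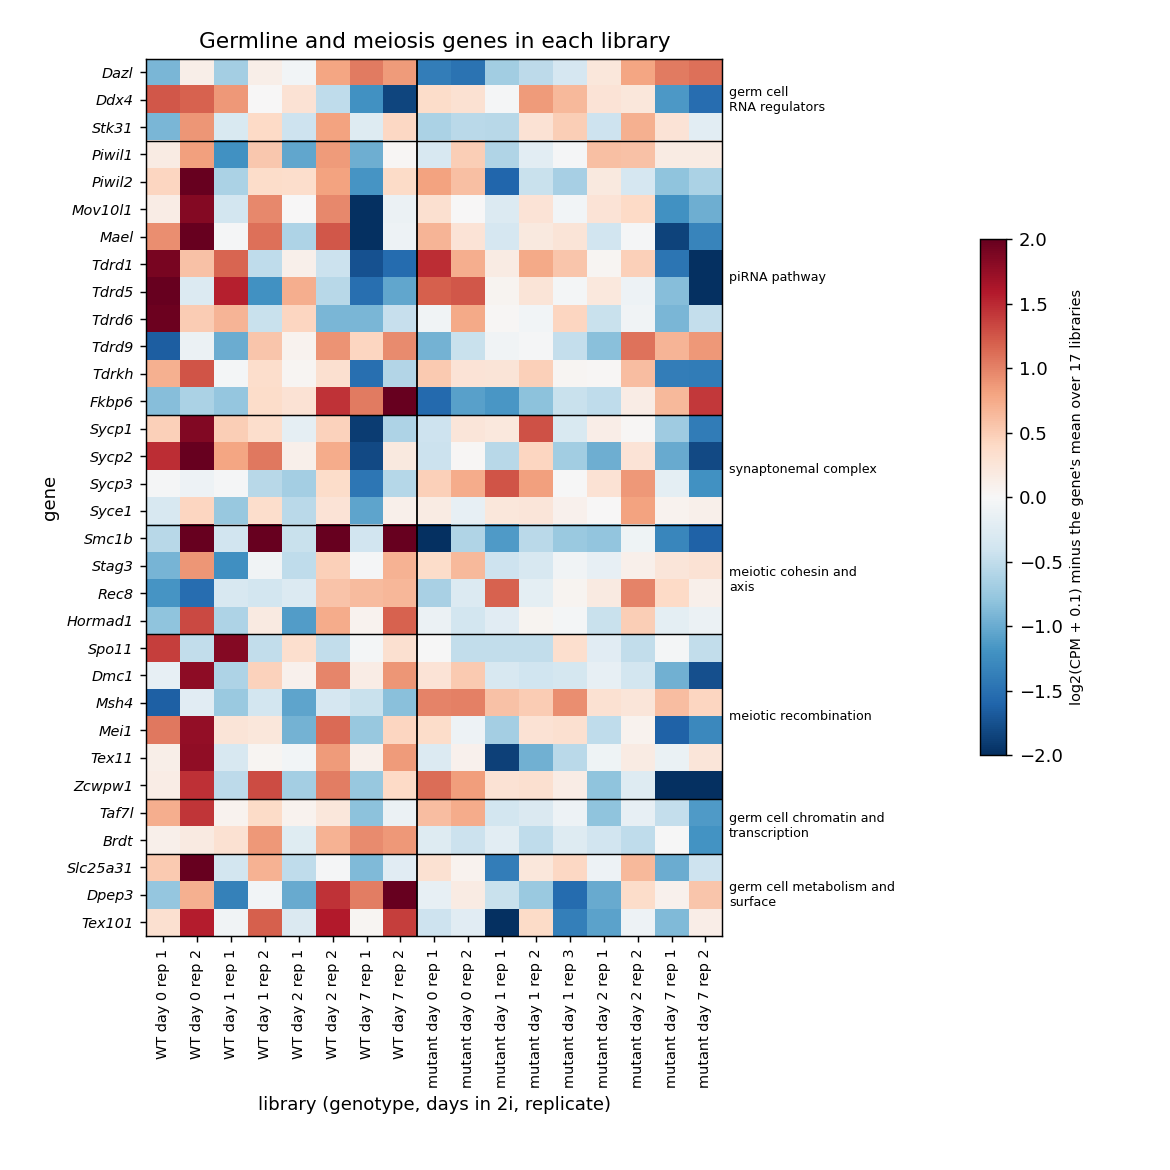
Each row is a gene of the list that passed the low-count filter, each column a library, and colour is log2(CPM + 0.1) minus the gene's mean over the 17 libraries, capped at 2 in either direction. WT replicate 2 columns are redder than WT replicate 1 in many rows, and Tdrd1, Tdrd5, Tdrd6 and Tdrkh are blue in all day 7 columns. Mael and Mov10l1 are blue in the day 7 columns except WT replicate 2, where they are close to the gene's mean.

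After 7 days of 2i more of these genes had fallen than risen. Averaged over both genotypes, 19 of the 32 tested genes passed the test between day 7 and day 0, 16 lower and 3 higher, where a call is a Benjamini-Hochberg adjusted p under 0.05 in edgeR's quasi-likelihood test. Among all genes tested, 27.3% were called, 13.7% higher and 13.7% lower. The median log2 fold change was -0.86 on the list and 0.01 over all genes. Leaving out single libraries kept the list's median between -0.66, where WT day 7 replicate 1 was omitted, and -1.37, where mutant day 7 replicate 1 was. By role, 7 of 10 tested piRNA genes, 3 of 4 synaptonemal complex genes and 3 of 6 recombination genes fell, and the piRNA genes had the median of -1.84. The calls of Tdrd5, Mael, Ddx4, Rec8, Dazl, Tdrd1, Tdrkh, Fkbp6, Zcwpw1 and Taf7l, 10 in all, were kept under every alternative processing and with each library left out in turn; the other 9 were each lost without at least 1 library, named beside them. Leaving out WT day 7 replicate 1 moved the count from 19 to 10, WT day 0 replicate 2 to 12, and mutant day 7 replicate 2 to 11.

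**Figure D2:**
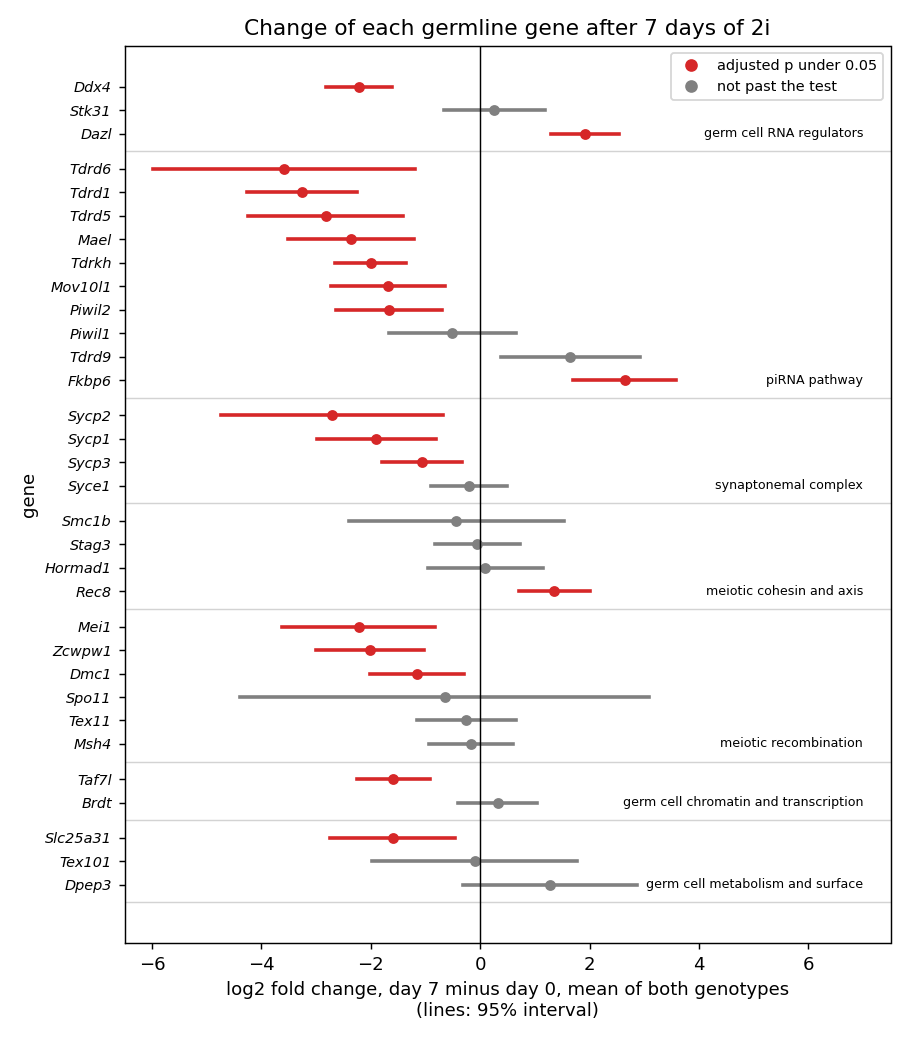
Points are log2 fold changes from day 0 to day 7 averaged over both genotypes, with 95% intervals, grouped by role. Red marks adjusted p under 0.05. Of the 19 red genes, Dazl, Rec8 and Fkbp6 lie right of 0 and the other 16 left of it.

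The germ cell RNA regulators moved in opposite directions. Dazl, an RNA-binding protein that controls translation in germ cells (chr17:50279395-50293636 on mm10), rose. WT Dazl levels were 3.25 and 6.70 CPM at day 0, 3.84 and 6.71 at day 1, 5.98 and 10.7 at day 2, and 12.8 and 11.3 at day 7. Mutant Dazl levels were 2.33 and 2.15 CPM, then 3.79, 4.29 and 4.89, then 7.30 and 10.8, and 12.8 and 13.5 at day 7. Every day 7 library lay above every day 0 library, and the mutant started lower than WT. Over both genotypes Dazl changed by log2 1.91 ± 0.29 (SE), adjusted p = 0.000401. Ddx4, the Vasa RNA helicase of germ granules (chr13:112598333-112652475), fell. WT Ddx4 levels were 19.7 and 19.0 CPM at day 0, 15.2 and 8.36 at day 1, 10.1 and 5.82 at day 2, and 3.51 and 2.25 at day 7. Mutant Ddx4 levels were 10.7 and 10.3 CPM, then 8.18, 15.0 and 13.0, then 10.1 and 9.75, and 3.70 and 2.83 at day 7. The 4 day 7 libraries were below all other libraries, and WT started higher than the mutant. Over both genotypes Ddx4 changed by log2 -2.22 ± 0.28 (SE), adjusted p = 0.000119. Stk31, a kinase-like protein of germ cells, did not pass the test (log2 0.26 ± 0.43 (SE), adjusted p = 0.699). WT Stk31 levels were 2.93 and 10.5 CPM at day 0, 4.53 and 7.44 at day 1, 4.20 and 9.89 at day 2, and 4.70 and 7.57 at day 7. Mutant Stk31 levels were 3.59 and 3.85 CPM, then 3.81, 6.89 and 7.98, then 4.22 and 9.26, and 6.87 and 4.83 at day 7. In WT replicate 2 was the higher library on each day.

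**Figure D3:**
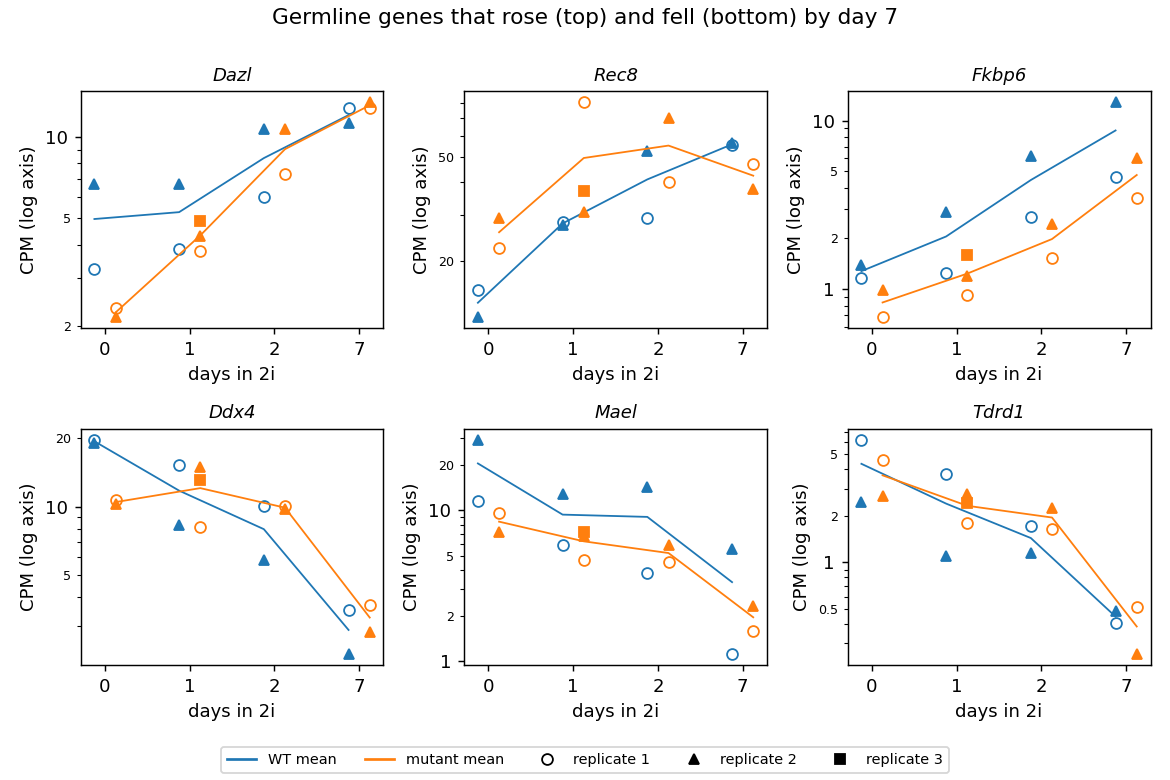
Each point is a library's CPM on a log axis, with lines through the group means, for 3 genes that rose (top) and 3 of those that fell (bottom). Dazl reaches 11.3 to 13.5 CPM in all 4 day 7 libraries, and Ddx4 ends at 2.25 to 3.70 CPM.

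Of the 10 tested piRNA genes, 7 fell, 1 rose and 2 did not pass the test. Tdrd1, a Tudor protein that docks PIWI proteins in germ granules (chr19:56826209-56870012), fell most among the calls that were kept throughout. WT Tdrd1 levels were 6.23 and 2.45 CPM at day 0, 3.70 and 1.10 at day 1, 1.72 and 1.16 at day 2, and 0.407 and 0.487 at day 7. Mutant Tdrd1 levels were 4.62 and 2.70 CPM, then 1.80, 2.76 and 2.41, then 1.64 and 2.26, and 0.517 and 0.254 at day 7. No day 7 library overlapped a day 0 library. Over both genotypes Tdrd1 changed by log2 -3.26 ± 0.47 (SE), adjusted p = 0.000294. Tdrd5, another Tudor protein of germ granules, fell by a similar amount. WT Tdrd5 levels were 13.1 and 1.96 CPM at day 0, 7.27 and 0.981 at day 1, 4.03 and 1.60 at day 2, and 0.777 and 1.12 at day 7. Mutant Tdrd5 levels were 5.62 and 5.80 CPM, then 2.49, 2.89 and 2.33, then 2.81 and 2.22, and 1.29 and 0.509 at day 7. At days 0, 1 and 2 it was higher in WT replicate 1 than in WT replicate 2, the reverse of most genes on the list. Over both genotypes Tdrd5 changed by log2 -2.82 ± 0.66 (SE), adjusted p = 0.00682. Mael, the Maelstrom protein of transposon silencing, fell in both genotypes. WT Mael levels were 11.5 and 29.5 CPM at day 0, 5.89 and 12.9 at day 1, 3.83 and 14.3 at day 2, and 1.11 and 5.58 at day 7. Mutant Mael levels were 9.61 and 7.23 CPM, then 4.71, 6.81 and 7.19, then 4.57 and 5.86, and 1.59 and 2.33 at day 7. On each WT day replicate 2 was over 2-fold above replicate 1, and both numbers were lowest at day 7. Over both genotypes Mael changed by log2 -2.36 ± 0.53 (SE), adjusted p = 0.00567.

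Tdrkh, a mitochondrial Tudor protein needed to trim piRNAs, fell. WT Tdrkh levels were 3.65 and 5.38 CPM at day 0, 2.12 and 2.83 at day 1, 2.25 and 2.76 at day 2, and 0.703 and 1.42 at day 7. Mutant Tdrkh levels were 3.17 and 2.66 CPM, then 2.63, 3.10 and 2.25, then 2.23 and 3.42, and 0.776 and 0.763 at day 7. All 4 day 7 libraries were below all 4 day 0 libraries. Over both genotypes Tdrkh changed by log2 -2.0 ± 0.30 (SE), adjusted p = 0.000381. Fkbp6, a co-chaperone in piRNA loading (chr5:135291704-135350044), was the only piRNA gene that rose. WT Fkbp6 levels were 1.17 and 1.39 CPM at day 0, 1.25 and 2.86 at day 1, 2.70 and 6.19 at day 2, and 4.62 and 12.9 at day 7. Mutant Fkbp6 levels were 0.682 and 0.985 CPM, then 0.924, 1.20 and 1.59, then 1.52 and 2.45, and 3.49 and 6.03 at day 7. Each day 7 library exceeded each day 0 library, and the highest was WT replicate 2. Over both genotypes Fkbp6 changed by log2 2.64 ± 0.44 (SE), adjusted p = 0.000797. Tdrd9, a helicase with a Tudor domain, was also higher at day 7 and missed the threshold (log2 1.65 ± 0.59 (SE), adjusted p = 0.0537; 95% interval 0.38 to 2.92). WT Tdrd9 levels were 0.134 and 0.575 CPM at day 0, 0.269 and 0.981 at day 1, 0.665 and 1.27 at day 2, and 0.888 and 1.31 at day 7. Mutant Tdrd9 levels were 0.281 and 0.438 CPM, then 0.601, 0.619 and 0.427, then 0.312 and 1.46, and 1.07 and 1.24 at day 7. It passed in the fit with a term for the WT replicate number (log2 1.77, adjusted p = 0.00771), described with the WT replicates below, and with DESeq2 (log2 1.63, adjusted p = 0.0222).

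Piwil2, the PIWI protein MILI, changed over both genotypes by log2 -1.66 ± 0.45 (SE), adjusted p = 0.0149. WT Piwil2 levels were 7.19 and 26.7 CPM at day 0, 3.40 and 6.87 at day 1, 6.83 and 9.37 at day 2, and 2.29 and 6.91 at day 7. Mutant Piwil2 levels were 9.31 and 8.12 CPM, then 1.71, 3.88 and 3.32, then 6.09 and 4.21, and 2.99 and 3.40 at day 7. WT day 0 replicate 2 stood far above all others, and WT day 7 replicate 2 was close to WT day 0 replicate 1. Piwil2 was not called without WT day 0 replicate 2 (adjusted p = 0.0788), WT day 7 replicate 1 (0.0557), mutant day 7 replicate 1 (0.0593) or mutant day 7 replicate 2 (0.0502). Mov10l1, the helicase that feeds precursors into piRNA production, changed by log2 -1.68 ± 0.48 (SE), adjusted p = 0.0207. WT Mov10l1 levels were 5.23 and 17.1 CPM at day 0, 3.64 and 9.30 at day 1, 4.77 and 9.25 at day 2, and 0.962 and 4.35 at day 7. Mutant Mov10l1 levels were 5.94 and 4.74 CPM, then 3.88, 5.74 and 4.54, then 5.74 and 6.23, and 2.0 and 2.36 at day 7. Its lowest library was WT day 7 replicate 1. Mov10l1 was not called without WT day 0 replicate 2 (adjusted p = 0.0958), WT day 7 replicate 1 (0.0585), mutant day 0 replicate 1 (0.0622), mutant day 7 replicate 1 (0.0763) or mutant day 7 replicate 2 (0.0617). Tdrd6, a large Tudor protein of spermatids, changed by log2 -3.58 ± 1.11 (SE), adjusted p = 0.0293, from 48 counts over the WT day 0 libraries and 16 over the mutant ones to 2 counts in each genotype at day 7, so its fitted size depends on the prior count of the fit. WT Tdrd6 levels were 0.637 and 0.169 CPM at day 0, 0.202 and 0.0392 at day 1, 0.156 and 0 at day 2, and 0 and 0.0375 at day 7. Mutant Tdrd6 levels were 0.0803 and 0.219 CPM, then 0.0924, 0.0825 and 0.155, then 0.0390 and 0.0809, and 0 and 0.0363 at day 7. WT day 0 replicate 1 was the highest library, with 38 of the 48 counts. Tdrd6 was not called without WT day 0 replicate 1 (adjusted p = 0.103), WT day 7 replicate 1 (0.0935), mutant day 0 replicate 2 (0.105) or mutant day 7 replicate 1 (0.105), nor without WT replicate 1 of days 0 and 1 together (0.0854). Piwil1, the PIWI protein MIWI, did not pass the test (log2 -0.51 ± 0.54 (SE), adjusted p = 0.528; 95% interval -1.67 to 0.65). WT Piwil1 levels were 0.854 and 1.40 CPM at day 0, 0.269 and 1.14 at day 1, 0.313 and 1.44 at day 2, and 0.333 and 0.768 at day 7. Mutant Piwil1 levels were 0.582 and 1.09 CPM, then 0.462, 0.640 and 0.738, then 1.19 and 1.17, and 0.850 and 0.854 at day 7. Its WT values were higher in replicate 2 on all days. Asz1 was at 0 to 0.182 CPM, highest in the 2 mutant libraries at day 7, with 8 and 10 counts, and was not tested.

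Of the 4 synaptonemal complex genes, 3 fell and 1 did not pass the test. Sycp3, of the lateral element that forms along each chromosome, changed by log2 -1.06 ± 0.34 (SE), adjusted p = 0.0336. WT Sycp3 levels were 19.0 and 18.0 CPM at day 0, 19.0 and 13.2 at day 1, 12.0 and 25.1 at day 2, and 7.04 and 13.0 at day 7. Mutant Sycp3 levels were 27.0 and 32.3 CPM, then 46.5, 34.4 and 19.2, then 23.8 and 35.5, and 16.9 and 8.28 at day 7. Mutant levels were above WT at day 0, and in each genotype both day 7 libraries were below both day 0 libraries. Sycp3 was not called without WT day 0 replicate 1 (adjusted p = 0.0724), WT day 0 replicate 2 (0.0551), WT day 7 replicate 1 (0.117), mutant day 0 replicate 1 (0.0666), mutant day 0 replicate 2 (0.0875) or mutant day 7 replicate 2 (0.132), nor without WT replicate 1 of days 0 and 1 together (0.0677). Sycp1, the transverse filament, changed by log2 -1.90 ± 0.50 (SE), adjusted p = 0.0136. WT Sycp1 levels were 1.47 and 3.96 CPM at day 0, 1.48 and 1.33 at day 1, 0.900 and 1.46 at day 2, and 0.203 and 0.637 at day 7. Mutant Sycp1 levels were 0.743 and 1.24 CPM, then 1.20, 2.64 and 0.816, then 1.13 and 1.05, and 0.591 and 0.327 at day 7. Day 7 libraries were the lowest in each genotype. Sycp1 was not called without WT day 0 replicate 2 (adjusted p = 0.0539), WT day 7 replicate 1 (0.053) or mutant day 7 replicate 2 (0.0646). Sycp2, the partner of Sycp3, changed by log2 -2.70 ± 0.94 (SE), adjusted p = 0.0479, with 0 and 16 counts in WT and 4 and 0 in the mutant at day 7. WT Sycp2 levels were 0.871 and 1.52 CPM at day 0, 0.505 and 0.628 at day 1, 0.274 and 0.485 at day 2, and 0 and 0.300 at day 7. Mutant Sycp2 levels were 0.161 and 0.255 CPM, then 0.139, 0.371 and 0.117, then 0.0781 and 0.324, and 0.0739 and 0 at day 7. WT libraries at day 0 were the highest. Sycp2 was not called without WT day 0 replicate 1 (adjusted p = 0.0621), WT day 0 replicate 2 (0.095), WT day 7 replicate 1 (0.0778), mutant day 0 replicate 1 (0.0824), mutant day 0 replicate 2 (0.117) or mutant day 7 replicate 2 (0.151), nor without WT replicate 1 of days 0 and 1 together (0.0586). Syce1, of the central element, did not pass the test (log2 -0.20 ± 0.32 (SE), adjusted p = 0.694; 95% interval -0.90 to 0.50). WT Syce1 levels were 9.25 and 15.7 CPM at day 0, 6.80 and 14.9 at day 1, 7.98 and 14.1 at day 2, and 5.51 and 12.4 at day 7. Mutant Syce1 levels were 13.0 and 10.4 CPM, then 13.5, 13.8 and 12.3, then 11.7 and 20.3, and 12.2 and 12.5 at day 7. Both mutant day 7 libraries lay between the 2 mutant day 0 libraries.

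Among the meiotic cohesin and axis genes only Rec8, the meiotic kleisin subunit (chr14:55618037-55625395), passed the test, and it rose. WT Rec8 levels were 15.6 and 12.3 CPM at day 0, 28.2 and 27.5 at day 1, 29.3 and 52.6 at day 2, and 55.1 and 56.2 at day 7. Mutant Rec8 levels were 22.5 and 29.1 CPM, then 80.4, 30.8 and 36.9, then 39.9 and 70.2, and 46.9 and 37.8 at day 7. WT day 7 libraries were close together and above all WT day 0 libraries, and mutant day 1 replicate 1 was the highest library. Over both genotypes Rec8 changed by log2 1.35 ± 0.30 (SE), adjusted p = 0.00511. Stag3, another meiotic cohesin subunit, showed no call (log2 -0.05 ± 0.36 (SE), adjusted p = 0.932; 95% interval -0.83 to 0.72). WT Stag3 levels were 18.9 and 66.0 CPM at day 0, 15.3 and 34.2 at day 1, 25.1 and 50.3 at day 2, and 35.4 and 58.6 at day 7. Mutant Stag3 levels were 46.3 and 56.7 CPM, then 27.0, 28.6 and 34.2, then 32.2 and 38.7, and 42.6 and 43.8 at day 7. In WT replicate 2 was the higher library on each day. Hormad1, an axis protein that monitors pairing, was not called either (log2 0.10 ± 0.48 (SE), adjusted p = 0.907; 95% interval -0.95 to 1.14). WT Hormad1 levels were 2.45 and 11.0 CPM at day 0, 2.79 and 4.94 at day 1, 1.96 and 7.31 at day 2, and 4.55 and 9.95 at day 7. Mutant Hormad1 levels were 3.99 and 3.32 CPM, then 3.67, 4.50 and 4.19, then 3.16 and 6.17, and 3.77 and 4.0 at day 7. Its highest libraries were WT replicate 2 at days 0 and 7. Smc1b, the meiotic SMC subunit, gave log2 -0.44 ± 0.91 (SE), adjusted p = 0.764 with a wide 95% interval -2.41 to 1.53, and is described with the genotypes.

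Of the 6 meiotic recombination genes, 3 fell and 3 did not pass the test. Zcwpw1, a reader of histone marks at recombination hotspots, fell. WT Zcwpw1 levels were 21.4 and 53.5 CPM at day 0, 13.4 and 47.9 at day 1, 12.1 and 39.6 at day 2, and 11.4 and 25.6 at day 7. Mutant Zcwpw1 levels were 42.2 and 34.4 CPM, then 23.7, 24.1 and 21.4, then 11.0 and 16.1, and 4.77 and 4.69 at day 7. Mutant day 7 libraries were the lowest of all, and in WT the day 0 and day 7 libraries overlapped. Over both genotypes Zcwpw1 changed by log2 -2.02 ± 0.46 (SE), adjusted p = 0.00574. Dmc1, the meiotic strand-exchange recombinase, changed by log2 -1.15 ± 0.40 (SE), adjusted p = 0.0465. WT Dmc1 levels were 6.87 and 27.0 CPM at day 0, 4.98 and 10.7 at day 1, 8.19 and 15.3 at day 2, and 8.58 and 14.4 at day 7. Mutant Dmc1 levels were 9.41 and 11.1 CPM, then 6.14, 5.82 and 6.02, then 6.85 and 5.94, and 3.92 and 2.22 at day 7. WT day 0 and day 7 libraries overlapped, and mutant ones did not. Of 8 fits leaving out a library of the compared groups, the call of Dmc1 was kept in 1, without WT day 0 replicate 1. Dmc1 was not called without WT day 0 replicate 2 (adjusted p = 0.299), WT day 7 replicate 1 (0.142), WT day 7 replicate 2 (0.0538), mutant day 0 replicate 1 (0.0889), mutant day 0 replicate 2 (0.108), mutant day 7 replicate 1 (0.0582) or mutant day 7 replicate 2 (0.163). Mei1, needed for meiotic breaks, changed by log2 -2.22 ± 0.65 (SE), adjusted p = 0.0223, with 2 and 4 counts in the mutant at day 7. WT Mei1 levels were 0.771 and 1.32 CPM at day 0, 0.404 and 0.392 at day 1, 0.117 and 0.821 at day 2, and 0.148 and 0.468 at day 7. Mutant Mei1 levels were 0.442 and 0.292 CPM, then 0.162, 0.413 and 0.427, then 0.195 and 0.344, and 0.0370 and 0.0727 at day 7. The 2 mutant day 7 libraries were the lowest of all. Mei1 was not called without WT day 0 replicate 2 (adjusted p = 0.0575), WT day 7 replicate 1 (0.0756), mutant day 0 replicate 1 (0.0724), mutant day 7 replicate 1 (0.0929) or mutant day 7 replicate 2 (0.0566).

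Tex11, an X-linked crossover factor, did not pass the test (log2 -0.25 ± 0.42 (SE), adjusted p = 0.699; 95% interval -1.16 to 0.65). WT Tex11 levels were 1.96 and 6.36 CPM at day 0, 1.41 and 1.84 at day 1, 1.72 and 3.32 at day 2, and 1.92 and 3.30 at day 7. Mutant Tex11 levels were 1.47 and 1.90 CPM, then 0.416, 0.867 and 1.20, then 1.68 and 2.02, and 1.63 and 2.14 at day 7. WT day 0 replicate 2 was the single high library. Spo11 gave log2 -0.65 ± 1.73 (SE), adjusted p = 0.818, with its highest values, 0.268 and 0.404 CPM, in WT day 0 and day 1 replicate 1. Msh4, a crossover factor, gave log2 -0.17 ± 0.35 (SE), adjusted p = 0.767 and differed between genotypes, as described below.

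Taf7l, a germ cell subunit of the TFIID complex, fell. WT Taf7l levels were 2.78 and 4.57 CPM at day 0, 1.72 and 2.16 at day 1, 1.72 and 1.94 at day 2, and 0.888 and 1.50 at day 7. Mutant Taf7l levels were 2.57 and 2.81 CPM, then 1.25, 1.32 and 1.51, then 0.898 and 1.46, and 1.15 and 0.690 at day 7. All 4 day 7 libraries were below all 4 day 0 libraries. Over both genotypes Taf7l changed by log2 -1.58 ± 0.31 (SE), adjusted p = 0.00222. Brdt, the testis bromodomain protein, did not pass the test (log2 0.32 ± 0.33 (SE), adjusted p = 0.517; 95% interval -0.40 to 1.04). Slc25a31, the germ cell ADP/ATP carrier, changed by log2 -1.60 ± 0.53 (SE), adjusted p = 0.0396. WT Slc25a31 levels were 1.14 and 3.48 CPM at day 0, 0.572 and 1.29 at day 1, 0.508 and 0.746 at day 2, and 0.370 and 0.637 at day 7. Mutant Slc25a31 levels were 0.963 and 0.803 CPM, then 0.231, 0.908 and 1.05, then 0.703 and 1.25, and 0.333 and 0.545 at day 7. WT day 0 replicate 2 was the highest library. Slc25a31 was not called without WT day 0 replicate 2 (adjusted p = 0.162), WT day 7 replicate 1 (0.12), WT day 7 replicate 2 (0.0587), mutant day 0 replicate 1 (0.103), mutant day 0 replicate 2 (0.0683), mutant day 7 replicate 1 (0.131) or mutant day 7 replicate 2 (0.0745). Dpep3, a testis dipeptidase, was not called (log2 1.28 ± 0.73 (SE), adjusted p = 0.223), but was with the term for WT replicate number (log2 1.29, adjusted p = 0.036). WT Dpep3 levels were 0.201 and 0.744 CPM at day 0, 0.101 and 0.392 at day 1, 0.156 and 1.31 at day 2, and 0.943 and 3.30 at day 7. Mutant Dpep3 levels were 0.361 and 0.474 CPM, then 0.277, 0.206 and 0.0777, then 0.156 and 0.566, and 0.443 and 0.654 at day 7. WT day 7 replicate 2 was the highest library. Tex101, a germ cell surface protein, was at 0 to 1.27 CPM and gave log2 -0.10 ± 0.87 (SE), adjusted p = 0.948.

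At earlier days fewer genes were called. A single day of 2i brought no call on the list in either genotype, with 4 genes at an unadjusted p under 0.05 in each and none by DESeq2; over all genes edgeR called 0.202% in WT and 1.41% in the mutant. With the term for WT replicate number, 3 were called in the mutant at day 1 (Piwil2, Zcwpw1 and Stag3, all lower) and none in WT. At day 2 edgeR called none in WT, where 6 were at an unadjusted p under 0.05, beside 2.16% of all genes. DESeq2 called 3 there (Ddx4, Rec8 and Fkbp6), and the term for WT replicate number 4 (the same 3 and Mael). In the mutant at day 2 edgeR called 1 gene, Dazl (log2 2.01 ± 0.41 (SE), adjusted p = 0.0206), beside 2.92% of all genes. DESeq2 called 2 there, Dazl and Taf7l, and the term for WT replicate number Dazl and Zcwpw1. The Dazl call at day 2 was not made without mutant day 0 replicate 1 (adjusted p = 0.184), mutant day 0 replicate 2 (0.157), mutant day 2 replicate 1 (0.0552) or mutant day 2 replicate 2 (0.157). Between day 2 and day 7, averaged over genotypes, Ddx4 (log2 -1.53 ± 0.27 (SE), adjusted p = 0.0169) and Tdrkh (log2 -1.55 ± 0.30 (SE), adjusted p = 0.0245) fell further, beside 1.20% of all genes called. With the term for WT replicate number 7 were called, and with DESeq2 5. Fitted on the compared groups alone none was called, with adjusted p = 0.0774 for Ddx4 and 0.102 for Tdrkh. Ddx4 was not called from day 2 without WT day 2 replicate 1 (adjusted p = 0.0767), mutant day 2 replicate 1 (0.0706), mutant day 2 replicate 2 (0.0648), mutant day 7 replicate 1 (0.0784) or mutant day 7 replicate 2 (0.107). Tdrkh was not called from day 2 without WT day 2 replicate 1 (adjusted p = 0.0611), WT day 7 replicate 1 (0.105), mutant day 2 replicate 1 (0.0525), mutant day 2 replicate 2 (0.12), mutant day 7 replicate 1 (0.124) or mutant day 7 replicate 2 (0.117).

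Within WT, 8 genes were called between day 7 and day 0: Rec8 and Fkbp6 rose, and Ddx4, Mael, Tdrd1, Tdrkh, Sycp1 and Taf7l fell. All genes were called at 12.7%, 6.62% higher and 6.10% lower. The median log2 fold change of the list was -0.95, and it moved to -0.42 when WT day 0 replicate 2 was left out. Omitting WT day 7 replicate 1 gave a median of -0.53, and omitting its partner, replicate 2, gave -1.73. Sizes ran from log2 -3.27 for Tdrd1 to 2.77 for Fkbp6. With the term for WT replicate number 18 were called, 5 higher and 13 lower, and DESeq2 called 13. The 12.7% is from the edgeR fit without that term, and no share of all genes is given for these other fits. Fitted on the compared groups alone, 1 was called, Rec8, and Ddx4 had adjusted p = 0.0538. Of the 8 calls, 0 were kept under every alternative. Ddx4 was called with each of the 4 libraries left out, and the others were not. Leaving out WT day 7 replicate 1 ended the calls of Mael, Sycp1, Taf7l, Tdrd1 and Tdrkh (adjusted p = 0.0649 to 0.167) and left 3. Leaving out WT day 0 replicate 2 ended those of Mael, Sycp1, Taf7l, Rec8 and Fkbp6 (adjusted p = 0.0502 to 0.177) and left 5, with others gained. Rec8, Tdrd1 and Fkbp6 were also not called without WT day 0 replicate 1 (adjusted p = 0.0513, 0.0567 and 0.0895), and Fkbp6 and Taf7l without WT day 7 replicate 2 (adjusted p = 0.108 and 0.0508).

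Within the mutant, 7 genes were called: Dazl and Fkbp6 rose, and Ddx4, Tdrd1, Tdrkh, Zcwpw1 and Taf7l fell. All genes were called at 14.2%, 7.20% higher and 6.96% lower. The list's median was -0.75, or -0.48 fitted on the compared groups alone and -0.49 with no filter on low counts. With the term for WT replicate number 13 were called, DESeq2 called 12, and the compared groups alone gave 16. The 14.2% of all genes is not the share for these fits. Without mutant day 0 replicate 1 or mutant day 7 replicate 2 the count was 1, and without mutant day 7 replicate 1 it was 3. Dazl (log2 2.55 ± 0.42 (SE), adjusted p = 0.00178) was called with each of the 4 libraries left out. Ddx4 was not called in the mutant without mutant day 0 replicate 1 (adjusted p = 0.085), mutant day 7 replicate 1 (0.0587) or mutant day 7 replicate 2 (0.114). Tdrd1 was not called in the mutant without mutant day 0 replicate 1 (adjusted p = 0.0604) or mutant day 7 replicate 2 (0.0807). Tdrkh was not called in the mutant without mutant day 0 replicate 1 (adjusted p = 0.0697), mutant day 7 replicate 1 (0.0797) or mutant day 7 replicate 2 (0.0798). Zcwpw1 was not called in the mutant without mutant day 0 replicate 1 (adjusted p = 0.0579), mutant day 7 replicate 1 (0.0891) or mutant day 7 replicate 2 (0.087). Fkbp6 was not called in the mutant without mutant day 0 replicate 1 (adjusted p = 0.145), mutant day 0 replicate 2 (0.073) or mutant day 7 replicate 2 (0.115). Taf7l was not called in the mutant without mutant day 0 replicate 1 (adjusted p = 0.121), mutant day 0 replicate 2 (0.117), mutant day 7 replicate 1 (0.0723) or mutant day 7 replicate 2 (0.223).

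Across the 32 genes the day 7 responses of WT and mutant, which share no library, correlated at r = 0.845 and had the same sign in 24. Over all 15365 genes r was 0.689 with the same sign in 10499. Genes are not independent replicates, and neither value carries a test. No difference between genotypes in the day 7 response was called by edgeR or DESeq2 on the list, and edgeR called 0% of all genes. An unadjusted p under 0.05 was reached by 3 genes on the list in edgeR, namely Dazl, Zcwpw1 and Rec8. Zcwpw1 fell 8.10-fold in the mutant, and its value in WT, not called, was 2.03-fold lower (log2 difference -2.0 ± 0.89 (SE), adjusted p = 0.647). With the term for WT replicate number Zcwpw1 was called (log2 -2.04, adjusted p = 0.0329). Dazl rose by log2 2.55 in the mutant beside an uncalled 1.28 in WT (log2 difference 1.27 ± 0.56 (SE), adjusted p = 0.647), and the day 7 libraries of both genotypes lay between 11.3 and 13.5 CPM. Rec8 rose by log2 2.00 in WT beside an uncalled 0.71 in the mutant (log2 difference -1.28 ± 0.59 (SE), adjusted p = 0.647).

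**Figure D4:**
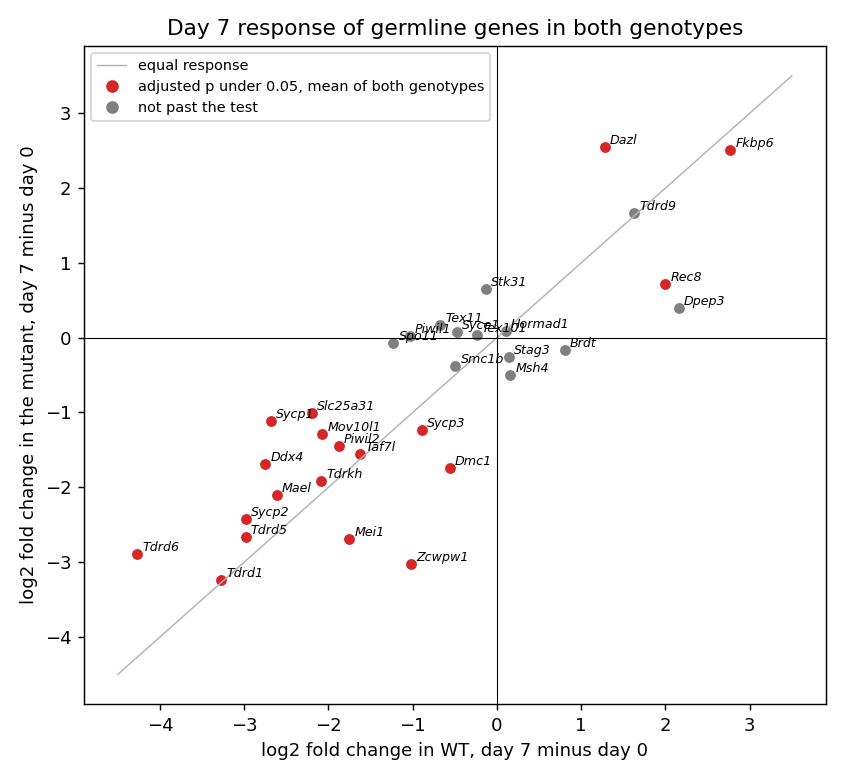
Each point is a gene of the list, with its log2 fold change from day 0 to day 7 in WT on the x axis and in the mutant on the y axis; the grey line marks equal responses and red the 19 calls over both genotypes. Zcwpw1 and Dmc1 lie below the line and Dazl, Ddx4 and Sycp1 above it.

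Between genotypes, averaged over the 4 days, 4 of 32 genes were called: Msh4 was higher in the mutant, and Smc1b, Dmc1 and Brdt were lower. Over all genes 12.8% were called in the same fit, 5.35% higher and 7.49% lower, so the share on the list was close to that of all genes. The median was -0.45 on the list and -0.03 over all genes, and 26 of the 32 values were negative. This lean depended on the WT replicate: against WT replicate 1 alone, with 1 library in each WT group, the list's median was 0.09. Against WT replicate 2 alone the median was -0.70. Tdrd5 (log2 -0.79 and 0.83 against replicates 1 and 2) and Stag3 (log2 0.80 and -0.36) thus changed sign with the replicate. The median was -0.23 without WT day 7 replicate 2, and -0.26 with a term for the WT replicate number. Of the 13 primitive endoderm genes 9 were lower in the mutant over the same libraries, and of 10 tested mesoderm and stroma genes 5, and their part in the genotype differences was not tested. Msh4, which with its partner marks future crossovers (chr3:153857149-153906138), was the most stable call. WT Msh4 levels were 0.335 and 1.05 CPM at day 0, 0.707 and 0.942 at day 1, 0.548 and 0.970 at day 2, and 0.888 and 0.656 at day 7. Mutant Msh4 levels were 2.57 and 2.59 CPM, then 1.92, 1.82 and 2.45, then 1.56 and 1.50, and 1.96 and 1.71 at day 7. The lowest mutant library (1.50 CPM) lay above the highest WT library (1.05 CPM). Averaged over days Msh4 differed by log2 1.37 ± 0.25 (SE), adjusted p = 0.0047, and it was called under every alternative and with each library left out.

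Smc1b (chr15:85064689-85131964) was lower in the mutant by log2 -2.93 ± 0.66 (SE), adjusted p = 0.0132. WT Smc1b levels were 0.938 and 13.4 CPM at day 0, 1.08 and 6.24 at day 1, 1.02 and 10.5 at day 2, and 1.07 and 9.14 at day 7. Mutant Smc1b levels were 0.281 and 0.912 CPM, then 0.601, 0.949 and 0.816, then 0.781 and 1.33, and 0.517 and 0.400 at day 7. WT replicate 1 lay within the range of the mutant pooled over days, 0.281 to 1.33 CPM. Compared by day, it was above all mutant libraries at days 0, 1 and 7 and between them at day 2. WT replicate 2 was above 6 CPM on each day. The call of Smc1b was kept with each library left out. Against WT replicate 1 alone Smc1b differed by log2 -0.56, adjusted p = 0.229, and against WT replicate 2 alone by log2 -3.76, adjusted p = 2.42e-06. Dmc1 differed by log2 -0.97 ± 0.27 (SE), adjusted p = 0.0344, and its mutant libraries overlapped those of WT replicate 1. Against WT replicate 1 alone it gave log2 -0.25, adjusted p = 0.308, and against replicate 2 alone log2 -1.41, adjusted p = 9.29e-05. Dmc1 was not called between genotypes without WT day 0 replicate 2 (adjusted p = 0.0745), WT day 1 replicate 2 (0.0695), WT day 2 replicate 2 (0.0749), WT day 7 replicate 2 (0.0838), mutant day 0 replicate 1 (0.0845), mutant day 0 replicate 2 (0.0698), mutant day 1 replicate 1 (0.0523), mutant day 1 replicate 2 (0.0586), mutant day 1 replicate 3 (0.0539), mutant day 2 replicate 1 (0.0684), mutant day 2 replicate 2 (0.0813) or mutant day 7 replicate 2 (0.0903). With replicate number as a block in both genotypes its adjusted p was 0.0512, and with the term for WT replicate number it was called (log2 -0.86, adjusted p = 0.00153).

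Brdt was lower in the mutant by log2 -0.94 ± 0.23 (SE), adjusted p = 0.0194. WT Brdt levels were 1.56 and 1.66 CPM at day 0, 1.82 and 2.75 at day 1, 1.21 and 2.43 at day 2, and 2.88 and 2.73 at day 7. Mutant Brdt levels were 1.20 and 1.06 CPM, then 1.25, 0.990 and 1.20, then 1.09 and 0.991, and 1.44 and 0.581 at day 7. WT was above the mutant at every day in both replicates, and mutant day 7 replicate 2 was the lowest library. Against WT replicate 1 alone Brdt gave log2 -0.71, adjusted p = 0.0587, and against WT replicate 2 alone log2 -1.10, adjusted p = 0.00667. Brdt was not called without mutant day 0 replicate 2 (adjusted p = 0.0529) or mutant day 2 replicate 2 (0.0536). Without WT replicate 1 of days 0 and 1, the pair with mesoderm and stroma transcripts, 8 genes were called in place of 4, the added ones being Piwil2, Fkbp6, Zcwpw1 and Tex11, all lower in the mutant. Leaving out WT day 2 replicate 1 or WT day 7 replicate 1 gave 7 calls, and leaving out mutant day 0 replicate 2 or mutant day 2 replicate 2 gave 2.

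**Figure D5:**
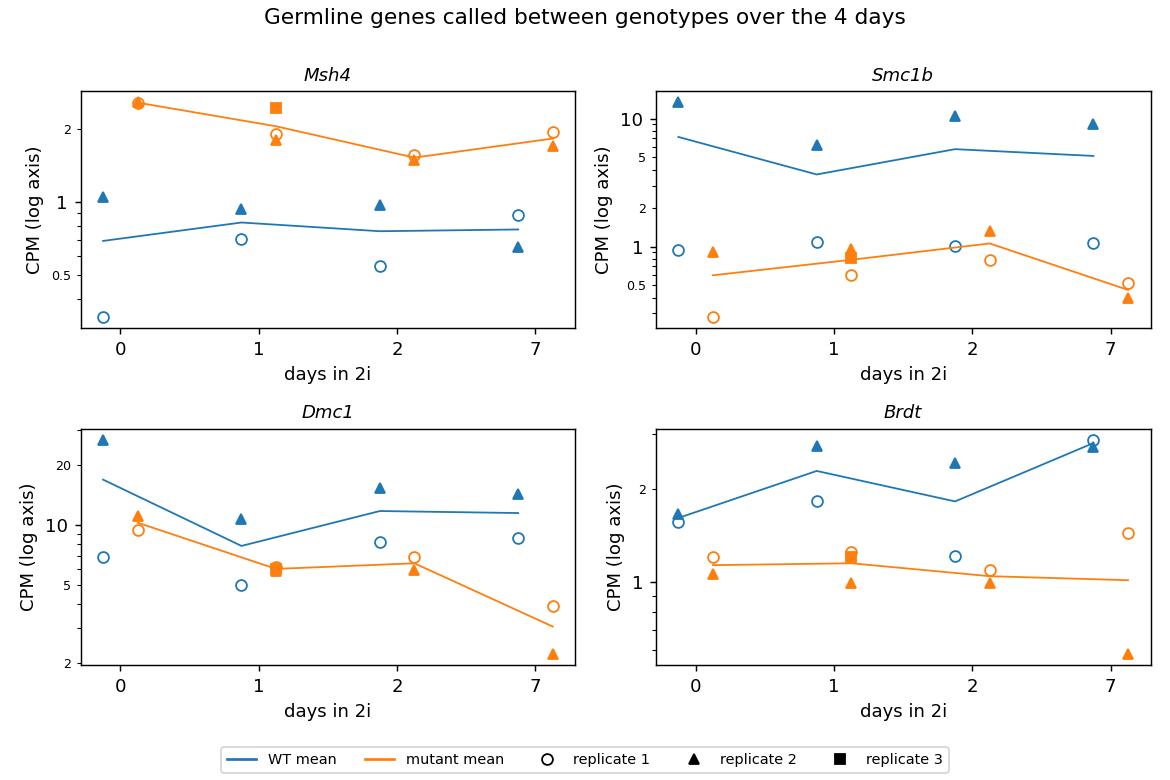
Points are the CPM of each library on a log axis, by days in 2i, with open circles for replicate 1, triangles for replicate 2, squares for replicate 3, and lines through group means. Msh4 separates the genotypes in all libraries, while for Smc1b the WT replicate 1 circles lie with the mutant.

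At single days edgeR called none of the 32 between genotypes. At day 0, 5 were at an unadjusted p under 0.05 beside 0.280% of all genes called, and DESeq2 and the fit with a term for WT replicate number each called Msh4 (higher) and Smc1b (lower). At day 1, 3 were at an unadjusted p under 0.05 beside 0.417% of all genes, DESeq2 called none, and the term for WT replicate number called Smc1b. At day 2 none was at an unadjusted p under 0.05 beside 0.0716% of all genes, and neither DESeq2 nor that term made a call. At day 7, 6 were at an unadjusted p under 0.05 beside 0.0976% of all genes, DESeq2 called Dmc1, and that term Dmc1, Smc1b and Zcwpw1, all lower. Averaged over days the term for WT replicate number called 14 of 32, 3 higher (Sycp3, Msh4 and Syce1) and 11 lower, and DESeq2 called 11. The shares of all genes above are from edgeR without that term and are not the shares for these fits.

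The WT replicates differed from each other on this list. The 32 tested genes were higher in WT replicate 2 than in replicate 1 in 25 cases at day 0, 23 at day 1, 27 at day 2 and 28 at day 7, beside 51.1 to 52.6% of all genes. In the mutant, replicate 2 was above replicate 1 in 18, 24, 23 and 16 cases, so that days 1 and 2 gave counts close to the lowest of WT. More than 2-fold higher in WT replicate 2 were 17, 14, 11 and 14 of them, beside 11.0 to 13.9% of all genes. In the mutant 2, 6, 5 and 1 of the 32 were over 2-fold higher in replicate 2, beside 3.31 to 5.21% of all genes. Genes higher in WT replicate 2 on all days included Smc1b, Stag3, Hormad1, Dmc1, Zcwpw1 and Mael. WT replicate 2 also carried more primitive endoderm transcripts, as given above, and their part in this was not tested.

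The de novo DNA methyltransferase genes were also lower at day 7 than at day 0, and much of their fall was seen by day 1. For Dnmt3a, Dnmt3b and Dnmt3l every day 1 library was below every day 0 library. On the list, Taf7l and Piwil2 separated in the same way. They reached at most 2.16 and 6.87 CPM at day 1, beside at least 2.57 and 7.19 CPM at day 0. In WT at day 1 edgeR called no gene on the list and none of the 9 genes of DNA methylation and demethylation. WT Dnmt3a levels were 179 and 186 CPM at day 0, 61.9 and 38.6 at day 1, and 28.7 and 21.0 at day 7. Mutant Dnmt3a levels were 179 and 106 CPM, then 41.8, 53.3 and 52.2 at day 1, and 28.2 and 36.8 at day 7. Dnmt3l changed by log2 -3.45 ± 0.35, adjusted p = 3.01e-05, Dnmt3a by log2 -2.50 ± 0.25, adjusted p = 2.36e-05 and Dnmt3b by log2 -2.34 ± 0.33, adjusted p = 0.00026. Dnmt3l was at 328 and 1028 CPM in WT and 433 and 274 in the mutant at day 0, and at 133 and 124 and 14.1 and 17.4 at day 7. Dnmt1, which maintains methylation, was not called (log2 0.02 ± 0.12, adjusted p = 0.942), nor was its partner Uhrf1 (log2 0.66 ± 0.24, adjusted p = 0.0624). Among the 9 genes of DNA methylation and demethylation, 3 were lower and 1, Tet2 (log2 1.03 ± 0.32, adjusted p = 0.0306), higher. Of 17 germline gene repressors 4 fell and 1 rose, a share close to the 27.3% of all genes called, with the smallest adjusted p for Ehmt2, the G9a histone methyltransferase (log2 -0.60 ± 0.14, adjusted p = 0.00617). DNA methylation itself was not measured here, and the part of these genes in the list's changes was not tested.

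Other germline genes are given beside the 27.3% of all genes called by day 7. Of 30 tested other meiosis genes 3 rose and 6 fell (median log2 -0.04), a share close to that of all genes. The smallest adjusted p were those of Mcmdc2 (log2 2.31 ± 0.41, adjusted p = 0.00135), Rec114 (log2 3.05 ± 0.62, adjusted p = 0.00297) and Hormad2 (log2 1.33 ± 0.31, adjusted p = 0.00672), all higher and all with roles in meiotic recombination or its control. Of 12 other piRNA genes 2 rose and 3 fell, led by Henmt1 (log2 -2.35 ± 0.53, adjusted p = 0.006), which methylates piRNA ends, and Piwil4 (log2 -2.21 ± 0.51, adjusted p = 0.00624). Among 13 genes of primordial germ cell identity 3 rose and 3 fell, with Utf1 lower (log2 -3.70 ± 0.38, adjusted p = 2.87e-05), and Kit (log2 2.66 ± 0.29, adjusted p = 5.03e-05) and Prdm14 (log2 1.81 ± 0.23, adjusted p = 0.000135) higher. Only 4 of 15 late spermatogenesis genes had enough counts to be tested, and Ldhc rose (log2 2.53 ± 0.44, adjusted p = 0.00104). Among 9 tested oocyte genes Figla fell (log2 -4.67 ± 1.11, adjusted p = 0.00845). The median of the list of 33, -0.86 over its 32 tested genes, was lower than that of these germline lists, a description without a test.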

How the data were processed

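The deposited values are raw gene counts, 1 table of whole numbers for all 17 libraries, made by the authors; per the submitters' processing notes STAR and deepTools were used with mm10, and the counting tool, annotation and strand setting are not given in the sources used here. Groups follow the sample titles. edgeR 4.0.16 (R 4.3.3) fitted all 17 libraries with TMM factors, filterByExpr and 1 coefficient per group (common biological coefficient of variation 0.333, 9 residual degrees of freedom). The 14 contrasts were tested by quasi-likelihood, two-sided, with Benjamini-Hochberg adjustment over 15365 genes and a threshold of 0.05. CPM use TMM-scaled library sizes, and 95% intervals are from the fitted value and its SE. The procedure was tested on simulated data in which libraries varied independently, so the pairing of WT libraries described below was not simulated.

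Members and lists were chosen with earlier results of these data known. Values per library are given for genes on the list that were called in a contrast or reached 1 CPM in a group mean; genes outside it are the called ones of each fixed list with the smallest adjusted p, up to 3, and 5 methylation genes. Positions and exon lengths are from GENCODE M21 (GRCm38, which is mm10). Alternatives were 2 other normalisations, no filter, a filter of 1 CPM in 4 libraries, DESeq2 1.42.0, only the compared groups, each library left out, WT day 0 and day 1 replicate 1 left out, and replicate number as a block. Shares of all genes called are from the edgeR fit of all 17 libraries without a block, and none is given for the alternatives.

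Same-numbered WT libraries deviated together from their group means (r = 0.236 to 0.744 in 6 of 6 pairs of days), so the number pairs WT libraries, although the labels do not say what it marks; the 6 mutant pairs gave r = -0.342 to 0.174. The term for WT replicate number is a block for WT alone. Added after seeing the data were fits with only 1 WT replicate number, and with halved counts. Where a group kept 1 library, it was assumed to vary like the others.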

Additional observations from a re-analysis of the deposited data

How the results depend on the processing

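None of the 41 calls on the list changed direction in 788 alternative fits of them; 654 kept the call and 134 lost it. For the change by day 7 over both genotypes the count of called genes stayed between 16 and 21 around 19 in all alternatives but leaving out single libraries, which gave 10 to 17. Fitted on the compared groups alone, Dmc1 (adjusted p = 0.0763) and Sycp2 (0.085) were not among them. Other counts moved. With the WT replicate block the paired fit called 2, 1 and 3 genes between genotypes at days 0, 1 and 7 and 14 over all days in place of 0, 0, 0 and 4; in WT 4 at day 2 and 18 at day 7 in place of 0 and 8; in the mutant 3, 2 and 13 at days 1, 2 and 7 in place of 0, 1 and 7; 7 from day 2 to day 7 in place of 2; and 1 difference between responses in place of 0. A replicate block shared by both genotypes gave 7 over all days and 1 in WT at day 2. DESeq2 gave 2 and 1 between genotypes at days 0 and 7, 11 over all days, 3 and 13 in WT at days 2 and 7, 2 and 12 in the mutant, and 5 from day 2. The compared groups alone gave 1 in WT at day 7, 4, 4 and 16 in the mutant at days 1, 2 and 7, and 0 from day 2. Without WT replicate 1 of days 0 and 1 there were 8 over all days and 4 from day 2. With only WT number 1, chosen after seeing the data, counts were 2 and 3 between genotypes at days 0 and 1, 6 over all days (5 higher in the mutant), 14 in WT at day 7, 5, 2 and 14 in the mutant, 9 from day 2 and 1 difference. With only WT number 2 they were 6, 2, 2 and 4 between genotypes by day, 19 over all days (17 lower in the mutant), 2 in WT at day 2, 4, 2 and 14 in the mutant and 6 from day 2. Leaving out single libraries gave 0 to 1 between genotypes at day 0, 2 to 7 over all days, 3 to 8 at day 7 in WT, 1 to 5 at day 7 in the mutant, 0 in the mutant at day 2, and 0 to 2 from day 2. The cause of these moves was not tested, and no share of all genes is given for these fits. Halved counts, also added later, moved no count by over 1.5 times. Genes under about 0.2 CPM rest on few counts.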

Other observations

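Germline genes outside the list are given here for the genotypes over the 4 days, in which 12.8% of all genes were called. Of 13 genes of primordial germ cell identity 4 were higher and 3 lower in the mutant, led by Ifitm3 (log2 -0.85 ± 0.17, adjusted p = 0.00725), Nanos3 (log2 0.80 ± 0.17, adjusted p = 0.0105) and Sox17 (log2 -4.25 ± 0.98, adjusted p = 0.0148), which is also a primitive endoderm gene. Of 30 tested other meiosis genes 3 were higher and 4 lower, with the smallest adjusted p for Ccnb1ip1 (log2 1.04 ± 0.10, adjusted p = 8.12e-05), Rec114 (log2 -1.90 ± 0.41, adjusted p = 0.0109) and Meiob (log2 -2.48 ± 0.58, adjusted p = 0.0174). Among 12 other piRNA genes 1, Rnf17, was lower (log2 -0.97 ± 0.13, adjusted p = 0.00102), a share below that of all genes. Dnmt3l was lower in the mutant (log2 -1.66 ± 0.23, adjusted p = 0.000958), and Dnmt3a was not called (log2 0.02 ± 0.16, adjusted p = 0.969).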
